A study of Mus musculus with 6 samples.

Results

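A set of 10 genes of capillary lipid uptake were followed in isolated lung ECs (iLECs) of newborn mice with and without endothelial *Atp6ap2*. They were *Lpl*, *Gpihbp1*, *Angptl4*, *Lipg*, *Cd36*, *Fabp4*, *Fabp5*, *Pparg*, *Ppard* and *Plin2*, listed by symbol for their roles in lipoprotein lipase biology, fatty acid uptake and PPAR signaling, by a rule that uses no measured value. All 10 of these symbols were among the 24972 in the deposited table, and all 10 passed the filter on low values that left 14456 genes for testing. *Angptl4* and *Lipg* were lower in *Atp6ap2* iECKO iLECs, at 45.6% and 32.6% of the control mean. For the other 8 genes the test was not passed.

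The comparison was between 3 control and 3 *Atp6ap2* iECKO libraries from lungs at P7. Control pups were labelled *Atp6ap2* fl/Y and carried no Cre, and *Atp6ap2* iECKO pups were labelled *Atp6ap2* fl/Y with *Cdh5*-CreERT2, a Cre that tamoxifen activates and that is made under the endothelial *Cdh5* promoter. Pups of both genotypes received tamoxifen (100 μg) on P1, P2 and P3 and were labelled C57BL/6, whereas the study's methods describe a mixed CD1 and C57BL/6 background. Because the controls lacked Cre, the presence of Cre and the loss of *Atp6ap2* cannot be told apart. iLECs were cells held by CD31 antibody on magnetic beads, so that cells other than ECs could be carried along. Values are the authors' normalized counts per gene, and totals per library were between 26243878 and 28725799. *Atp6ap2* itself was at 7490, 5815 and 5681 in the control libraries and 4220, 2336 and 1982 in the *Atp6ap2* iECKO libraries, which was 45.0% of the control mean (log2 fold change −1.22, SE 0.26, limma adjusted *P* = 0.0306). *Xist*, the transcript that marks the inactive X chromosome of females, was abundant in 4 of 6 libraries, 2 per genotype, against the fl/Y label. The study's methods say that neonates of both sexes were used. Of these 4 libraries, control 1 also held the Y-linked transcript *Ddx3y*, at 172.9 against 0 in control 2 and 4554 in control 3, which lacked abundant *Xist*. Among the same 4, *Atp6ap2* iECKO 3 held *Ddx3y* at 11.3 and *Atp6ap2* iECKO 1 at 0. The log2 fold changes and the counts of calls were therefore also computed with *Xist* as a covariate and on the 4 libraries with *Xist* alone.

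Capillary ECs take fatty acids from triglyceride-rich lipoproteins in the blood. Lipoprotein lipase, encoded by *Lpl*, is carried to the capillary lumen by the endothelial anchoring protein GPIHBP1, where it releases fatty acids from triglycerides. ANGPTL4 inactivates the enzyme. The freed fatty acids enter cells with the help of the scavenger receptor CD36 and are bound inside by the chaperones FABP4 and FABP5, and they activate the nuclear receptors PPARγ (*Pparg*) and PPARδ (*Ppard*). *Angptl4*, *Cd36*, *Fabp4* and *Plin2*, which encodes a coat protein of lipid droplets, are known PPAR target genes. Endothelial lipase, encoded by *Lipg*, is a relative of lipoprotein lipase made by ECs that acts mainly on phospholipids of high-density lipoproteins.

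For *Angptl4*, the inhibitor of lipoprotein lipase (chromosome 17, 33773750 to 33781830, minus strand, GRCm38), the control libraries were at 1079, 1846 and 1760 normalized counts and the *Atp6ap2* iECKO libraries at 806.3, 635.0 and 696.4. Every *Atp6ap2* iECKO library was below every control library, and control 1 was the one nearest to them. The means were 1562 ± 420 (SD, n = 3) and 712.6 ± 86.8 (SD, n = 3), a log2 fold change of −1.10 (SE 0.20, 95% interval −1.57 to −0.63, limma adjusted *P* = 0.0215). The exact two-sided permutation test over the libraries gave *P* = 0.1, the smallest value that 3 against 3 allow. Leaving out 1 library kept the direction, with log2 fold changes from −1.34 to −0.96. The adjusted *P* value rose to 0.0520 without control 2, 0.0828 without control 3, 0.0769 without *Atp6ap2* iECKO 2 and 0.0803 without *Atp6ap2* iECKO 3. It was 0.0348 with *Xist* as a covariate, and 0.214 for a log2 fold change of −0.91 in the 4 libraries with *Xist*. In bulk libraries such as these, fewer cells of a type and less RNA per cell cannot be told apart.

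*Lipg*, endothelial lipase (chromosome 18, 74939322 to 74961263, minus strand), had the widest drop of the 10 genes. It was at 1074, 853.1 and 1427 normalized counts in the control libraries and 629.2, 289.2 and 176.0 in the *Atp6ap2* iECKO libraries. The genotypes did not overlap, although the *Atp6ap2* iECKO libraries spread more widely relative to their mean than the control libraries. The means were 1118 ± 289 (SD, n = 3) and 364.8 ± 235.9 (SD, n = 3), a log2 fold change of −1.78 (SE 0.42, 95% interval −2.74 to −0.82, limma adjusted *P* = 0.0408). The exact permutation *P* value was again 0.1. Over fits with 1 library left out the log2 fold change was between −2.27 and −1.36. The call was kept without *Atp6ap2* iECKO 1 (adjusted *P* = 0.00919) and was lost without any other library, with adjusted *P* values of 0.0888, 0.0649 and 0.133 without control 1, 2 and 3, and 0.118 and 0.103 without *Atp6ap2* iECKO 2 and 3. With *Xist* as a covariate it was 0.0576, and in the 4 libraries with *Xist* the log2 fold change was −1.52 (adjusted *P* = 0.277).

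**Figure D1:**
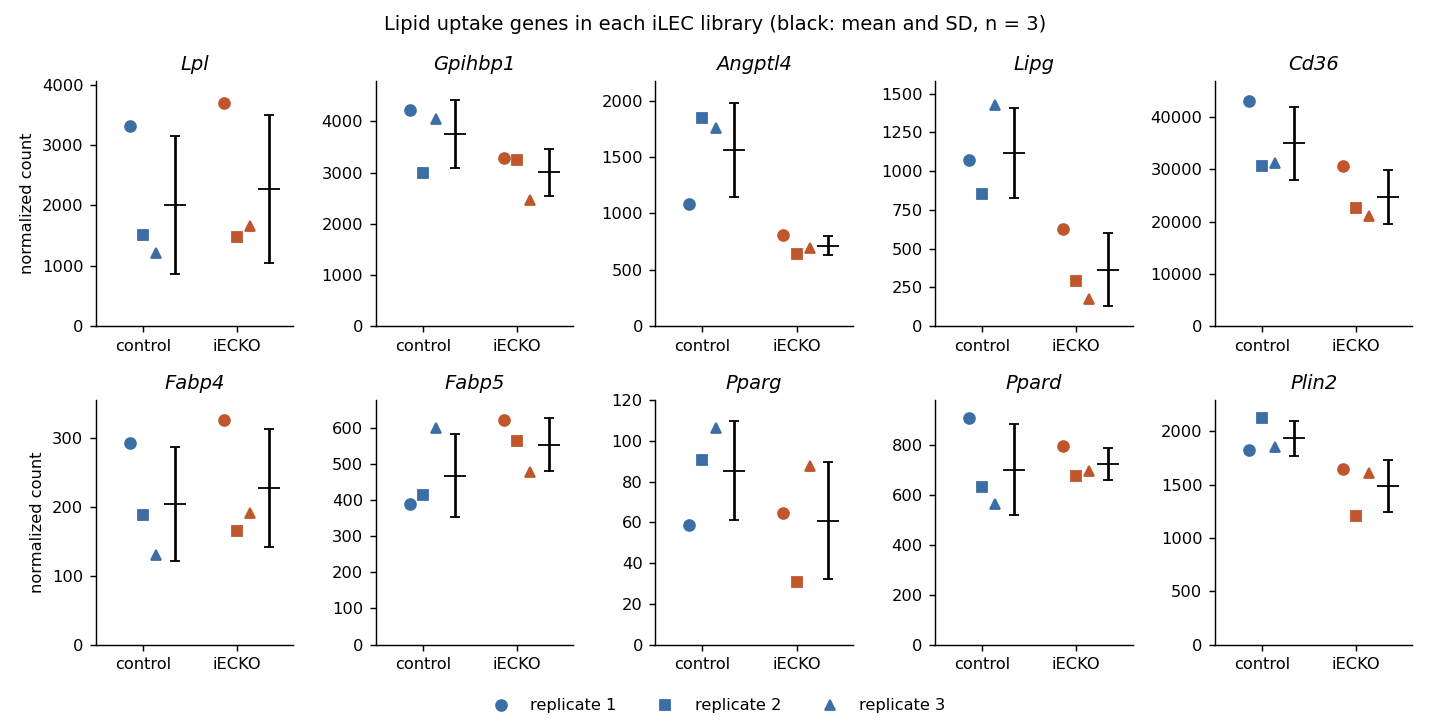
Normalized counts of the 10 genes (vertical axes, each from 0) in the 3 control (blue) and 3 *Atp6ap2* iECKO (orange) libraries, with the replicate numbers of the labels as symbols and the mean with SD in black. *Angptl4*, *Lipg*, *Cd36* and *Plin2* do not overlap between genotypes, and *Lpl* and *Fabp4* stand high in replicate 1 of both.

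For the enzyme and its anchor the test was not passed. *Lpl* (chromosome 8, 68880491 to 68907448, plus strand) was at 3323, 1505 and 1206 normalized counts in the control libraries and 3690, 1479 and 1652 in the *Atp6ap2* iECKO libraries. Replicate 1 was more than the other two together in each genotype, so the spread within a genotype was wider than the difference between the means. The log2 fold change was 0.19 with a 95% interval of −0.81 to 1.20 (limma adjusted *P* = 0.833, exact permutation *P* = 0.6), an interval that runs from 0.570-fold to 2.29-fold. It turned to −0.10 without control 3 and to −0.22 without *Atp6ap2* iECKO 1. *Gpihbp1* (chromosome 15, 75596628 to 75599481, plus strand), which is made by capillary ECs, was at 4225, 2995 and 4047 in the control libraries and 3285, 3249 and 2469 in the *Atp6ap2* iECKO libraries. The genotypes overlapped through control 2, the lowest control library. Its log2 fold change was −0.32 (SE 0.16, 95% interval −0.69 to 0.05, adjusted *P* = 0.275).

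Of the genes for fatty acid entry and binding, *Cd36* alone separated the genotypes, and only just. *Cd36* (chromosome 5, 17781690 to 17888801, minus strand) was at 43064, 30683 and 31161 normalized counts in the control libraries and 30581, 22524 and 20971 in the *Atp6ap2* iECKO libraries. The highest *Atp6ap2* iECKO library lay directly under the lowest control library. The *Atp6ap2* iECKO mean was 70.6% of the control mean, a log2 fold change of −0.50 (SE 0.18, 95% interval −0.93 to −0.08), with an unadjusted limma *P* value of 0.0261 and an adjusted *P* value of 0.144 that missed the threshold.

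*Fabp4* and *Fabp5* encode related fatty acid chaperones and both lie on chromosome 3, with 187481 bases from the end of *Fabp5* to the start of *Fabp4*. *Fabp4* (10204088 to 10208576, minus strand) was at 292.9, 188.0 and 129.7 in the control libraries and 325.4, 164.7 and 191.5 in the *Atp6ap2* iECKO libraries. *Fabp5* (10012548 to 10016607, plus strand) was at 388.8, 414.2 and 598.2 against 621.1, 562.1 and 477.0. Both overlapped between genotypes, and within a genotype the library highest for *Fabp4* was not always the one highest for *Fabp5*. The log2 fold changes were 0.17 (95% interval −0.63 to 0.98, limma adjusted *P* = 0.811) for *Fabp4* and 0.26 (95% interval −0.17 to 0.69, adjusted *P* = 0.446) for *Fabp5*. *Fabp4* turned to −0.11 without control 3 and to −0.12 without *Atp6ap2* iECKO 1. The annotation names 1 copy of *Fabp5*, *Fabp5l2*, that has no row in the table, so reads of the 2 may have been split or joined.

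The nuclear receptors overlapped between genotypes. *Pparg* (chromosome 6, 115360951 to 115490399, plus strand) was at 58.7, 90.8 and 106.3 normalized counts in the control libraries and 64.4, 30.5 and 87.5 in the *Atp6ap2* iECKO libraries. It had the lowest counts of the 10 genes, and an antisense gene, *Gm44079*, overlaps it, whose reads a library kit without strand marks cannot separate. Its log2 fold change was −0.56 with a 95% interval of −1.53 to 0.41 (limma adjusted *P* = 0.471), and it was 0.04 in the 4 libraries with *Xist*. *Ppard* (chromosome 17, 28232700 to 28301474, plus strand) was at 907.5, 632.0 and 563.0 in the control libraries and 798.1, 677.7 and 695.4 in the *Atp6ap2* iECKO libraries. The *Atp6ap2* iECKO libraries all lay within the range of the control libraries. Its log2 fold change was 0.07 (95% interval −0.34 to 0.49, adjusted *P* = 0.848), and it turned to −0.07 without control 3 and to −0.02 in the 4 libraries with *Xist*.

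*Plin2*, the lipid droplet coat gene (chromosome 4, 86648386 to 86670060, minus strand), was at 1828, 2123 and 1856 normalized counts in the control libraries and 1649, 1204 and 1606 in the *Atp6ap2* iECKO libraries. The genotypes did not overlap, and control 1 and *Atp6ap2* iECKO 1 were nearest to each other. The log2 fold change was −0.39 (SE 0.13, 95% interval −0.70 to −0.08), with an unadjusted limma *P* value of 0.0192 and an adjusted *P* value of 0.122 that missed the threshold.

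PPARs bind DNA with RXR partners at a response element of the form AGGTCANAGGTCA. Promoter sequences from RefSeq (GRCm38.p6) were at hand for 4 of the 10 genes, *Plin2*, *Cd36*, *Pparg* and *Ppard*, and 250 bases before each start were searched on both strands, with at most 2 of the 12 fixed bases different. The 2 PPAR target genes among them, *Plin2* and *Cd36*, each held 1 match, on the strand opposite to the gene, and are shown here for it. No relation between a match and a gene's level was tested. The windows are given 5′ to 3′ on the strand of the gene, with the match in capitals, for chr4:86670060-86670309 (*Plin2*, minus strand) and chr5:17835897-17836146 (*Cd36*, minus strand).
Plin2: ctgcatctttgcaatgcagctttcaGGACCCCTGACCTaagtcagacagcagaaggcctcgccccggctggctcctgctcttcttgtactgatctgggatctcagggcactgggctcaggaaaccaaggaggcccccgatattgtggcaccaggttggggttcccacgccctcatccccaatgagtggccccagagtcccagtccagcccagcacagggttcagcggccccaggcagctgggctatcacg
Cd36: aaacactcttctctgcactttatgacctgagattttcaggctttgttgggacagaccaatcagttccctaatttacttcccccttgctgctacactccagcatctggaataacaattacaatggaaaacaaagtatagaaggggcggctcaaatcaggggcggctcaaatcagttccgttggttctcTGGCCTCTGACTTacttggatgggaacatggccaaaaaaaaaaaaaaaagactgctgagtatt
The *Plin2* match began 225 bases before the start and the *Cd36* match 63 bases before it. The half-site AGGTCA alone, held by 4607 of the 32851 promoters, lay inside the *Plin2* match, and 228 bases before the start in the *Cd36* window, apart from the match. The *Cd36* window lies inside the gene as GENCODE draws it, where no GENCODE exon overlaps it, and the bases that follow this RefSeq start were not found in a GENCODE transcript, so its distance holds for the RefSeq start only. No match was found in the windows of *Pparg* or *Ppard*. Of all promoters of the same length, 3.24% held such a match. A match of letters is a description and not a measured binding site.

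**Figure D2:**
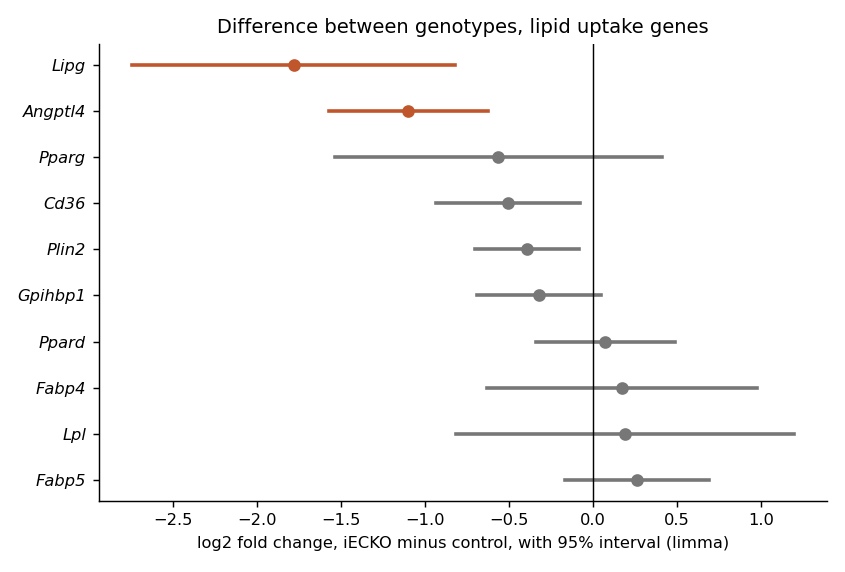
Log2 fold change of each gene (horizontal axis, *Atp6ap2* iECKO minus control) with its 95% interval from limma, in orange where the adjusted *P* value was below 0.05. *Lipg* and *Angptl4* lie lowest, the intervals of *Cd36* and *Plin2* stop short of 0, and the other 6 intervals cross it.

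Counted together, 2 of the 10 genes were lower by limma, against 4.97% of all genes tested, and 0 were higher, against 3.28%. At an unadjusted *P* value below 0.05, 4 of the 10 genes differed, *Angptl4*, *Lipg*, *Cd36* and *Plin2*, all of them lower, and 0 were higher, against 3453 of the 14456 genes tested in either direction. The same 4 genes had every *Atp6ap2* iECKO library below every control library, which held for 15.0% of all genes tested. The median log2 fold change of all 10 genes was −0.36, against 0.005 for all genes tested, and 6 of the 10 were below 0.

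Levels can be set beside each other only per length, and were taken as normalized counts per kb of merged exons. *Cd36* stood first in control iLECs at 9741 ± 1954 per kb (SD, n = 3), followed by *Gpihbp1* at 1470 ± 260 per kb and *Plin2* at 551 ± 46.3 per kb, each below the one before it in every control library. *Angptl4* at 441 ± 119 per kb did not separate from *Plin2*, and *Lipg* came next at 237 ± 61.4 per kb. *Lpl* at 192 ± 109, *Fabp5* at 131 ± 32.0 and *Ppard* at 93.3 ± 24.3 per kb followed, and none of these 3 separated from the gene before it. *Fabp4* was at 45.3 ± 18.4 per kb and *Pparg* at 28.9 ± 8.22 per kb, and *Pparg* was not below *Fabp4* in every control library.

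In *Atp6ap2* iECKO iLECs the first 3 and the last 2 places were the same. *Lpl* at a mean of 217 per kb and *Angptl4* at 201 per kb came next and did not separate, since *Lpl* was the higher in *Atp6ap2* iECKO 1 only. *Lipg* stood just above *Fabp4* by its mean of 77.4 per kb. In *Atp6ap2* iECKO 3 it was below *Fabp4*, at 37.3 against 42.7 per kb. The order depends on the length used. Over longest transcripts the control level of *Lpl* was 489 per kb in place of 192, above *Angptl4* at 472 and *Lipg* at 295. *Ppard* at 188 per kb then stood above *Fabp5* at 144.

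**Figure D3:**
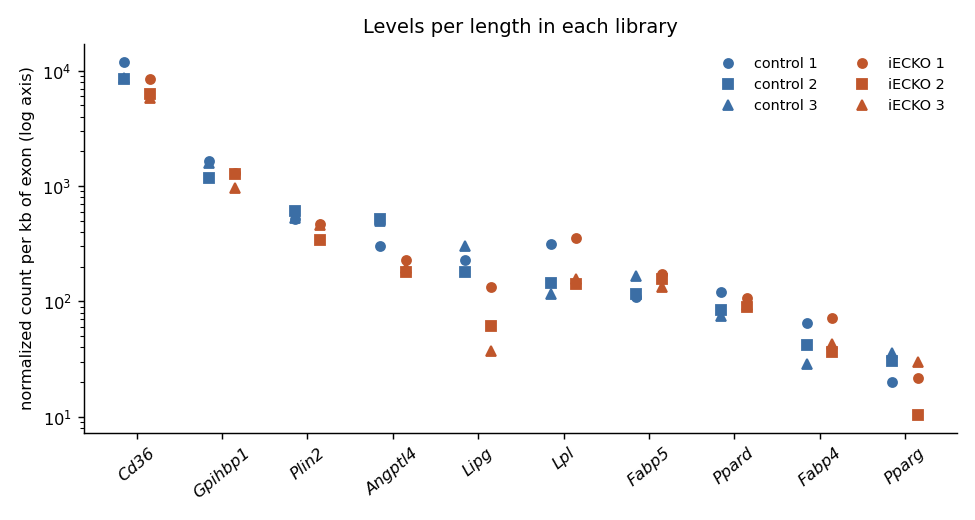
Level of each gene per kb of exon (logarithmic vertical axis) in each control (blue) and *Atp6ap2* iECKO (orange) library, in the order of the control means. Levels run from *Cd36* down to *Pparg*, and *Lipg* shows the widest gap between genotypes.

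Ratios of 2 genes within 1 library were also compared, per kb, for 6 pairs. The level of *Lipg* relative to *Lpl*, its relative in the lipase family, was 0.718, 1.26 and 2.63 in the control libraries and 0.379, 0.435 and 0.237 in the *Atp6ap2* iECKO libraries. This ratio did not overlap between genotypes (exact permutation *P* = 0.1, 0.6 adjusted over the 6 ratios). *Angptl4* relative to *Lpl* was 0.961, 3.63 and 4.32 against 0.647, 1.27 and 1.25, and overlapped through control 1, where *Lpl* was high. The ratios of *Angptl4* to *Gpihbp1*, *Lpl* to *Gpihbp1*, *Fabp5* to *Fabp4* and *Ppard* to *Pparg* also overlapped, with exact permutation *P* values from 0.2 to 0.9. The size of a ratio, though not its order over the libraries, depends on the length used. Over longest transcripts the level of *Lpl* was 2.55 times that over merged exons, against 1.07 times for *Angptl4* and 1.25 times for *Lipg*.

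The libraries with replicate number 1 stood high for several of the genes in both genotypes. A group of 5 genes, *Lpl*, *Gpihbp1*, *Cd36*, *Fabp4* and *Ppard*, were highest in replicate 1 of each genotype, and 9 of the 10, all but *Pparg*, were highest of the *Atp6ap2* iECKO libraries in *Atp6ap2* iECKO 1. *Atp6ap2* itself was also highest of the *Atp6ap2* iECKO libraries there, at 4220 against 2336 and 1982. The share of all genes that were highest in this library was not counted. Over the 6 libraries *Lpl* and *Fabp4* moved most alike of all pairs (Pearson *r* = 0.98 on the log2 scale, points sharing genotype and library). *Ppard* followed with *r* = 0.92 to *Lpl* and 0.91 to *Fabp4*, then *Cd36* with *Lipg* at 0.86 and *Angptl4* with *Plin2* at 0.84.

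The partners of these proteins were followed in 8 lists with 129 genes, of which 105 were tested, 4 were higher and 11 lower, with a median log2 fold change of −0.16. Over all genes tested, 3.28% were higher and 4.97% lower, the shares against which the counts of each list are to be read. In the list of lipoprotein lipase handling, which holds its cofactors, maturation factors, cleaving proteases and lipoprotein receptors, 14 of 19 genes were tested, 1 was higher and 2 were lower. The lipoprotein receptor genes *Lrp1* (log2 fold change −1.04, adjusted *P* = 0.0287) and *Vldlr* (−0.44, adjusted *P* = 0.0461) fell, and *Pcsk6*, a proprotein convertase, rose by 0.58 (adjusted *P* = 0.0289). *Lmf1* and *Sel1l*, whose products help lipoprotein lipase to fold and leave the endoplasmic reticulum, were at log2 fold changes of −0.16 and 0.04 and did not pass the test. In the angiopoietin-like family, 3 of 6 genes were tested. *Angptl2* fell, from 884.3, 1387 and 1426 in the control libraries to 673.4, 593.8 and 557.7 in the *Atp6ap2* iECKO libraries (log2 fold change −0.99, adjusted *P* = 0.0221), and *Angptl6* and *Angptl8* did not pass the test.

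Among fatty acid transporters and activating enzymes, 1 of 13 tested genes was lower and 1 higher. *Slc27a6*, a fatty acid transport protein, was at 1242, 2718 and 2009 normalized counts in the control libraries and 419.1, 546.1 and 497.9 in the *Atp6ap2* iECKO libraries (log2 fold change −1.96, limma adjusted *P* = 0.0101). The genotypes did not overlap, and the call was kept whichever library was left out. *Acot7*, an acyl-CoA thioesterase, rose by 0.72 on the log2 scale (adjusted *P* = 0.0192). In the family of small lipid-binding proteins beyond *Fabp4* and *Fabp5*, the fatty acid binding protein gene *Fabp3* (log2 fold change −1.66, adjusted *P* = 0.0371) and the retinoid carrier gene *Crabp1* (−2.24, adjusted *P* = 0.0323) fell. *Crabp1* was at 20.4, 10.5 and 5.54 normalized counts in the *Atp6ap2* iECKO libraries, near the low end of the range tested.

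Of 15 tested PPAR partners and cofactors, 0 passed the limma test in either direction, and 1, *Ncoa1*, had an unadjusted *P* value below 0.05. Of 24 tested PPAR targets of fatty acid oxidation, 1 passed the test. *Acadl*, a long-chain acyl-CoA dehydrogenase, rose by 0.43 on the log2 scale (adjusted *P* = 0.0463), a call that was lost whichever library was left out. The medians of the 2 lists were −0.01 and −0.15. Over the whole table, 1193 of 14456 genes were called in either direction.

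Of 18 tested genes of lipid droplets and lipolysis, 3 fell and 0 rose. *G0s2*, an inhibitor of triglyceride lipase, was at 329.4, 508.9 and 669.3 in the control libraries and 161.2, 134.0 and 175.6 in the *Atp6ap2* iECKO libraries (log2 fold change −1.62, limma adjusted *P* = 0.0138). *Dgat2*, which makes triglyceride, fell by 1.03 (adjusted *P* = 0.0287) and *Lipe*, hormone-sensitive lipase, by 0.57 (adjusted *P* = 0.0256). Among 15 regulators of endothelial fatty acid transport, 1 was lower and 1 higher. The transcription factor gene *Meox2* was at 541.9, 1003 and 1017 in the control libraries and 300.7, 383.2 and 283.2 in the *Atp6ap2* iECKO libraries (log2 fold change −1.36, adjusted *P* = 0.0212). *Apln*, the ligand of the apelin receptor, rose by 0.87 (adjusted *P* = 0.0284). *Tcf15*, the binding partner of *Meox2* in heart capillaries, was at −0.71 (adjusted *P* = 0.14) and did not pass the test.

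The 15 calls in the lists of partners differed in how far they rested on single libraries. With 1 library left out in turn, the call of *Slc27a6* was kept in 6 of 6 fits, that of *G0s2* in 5, that of *Acot7* in 4, that of *Meox2* in 3, those of *Lrp1*, *Angptl2* and *Lipe* in 2, and those of *Pcsk6*, *Vldlr*, *Fabp3*, *Crabp1*, *Dgat2* and *Apln* in 1, and none of the 15 reversed. The number of calls in the lists was 6 without control 2, 4 without control 3, 3 without *Atp6ap2* iECKO 2 and 2 without *Atp6ap2* iECKO 3.

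**Figure D4:**
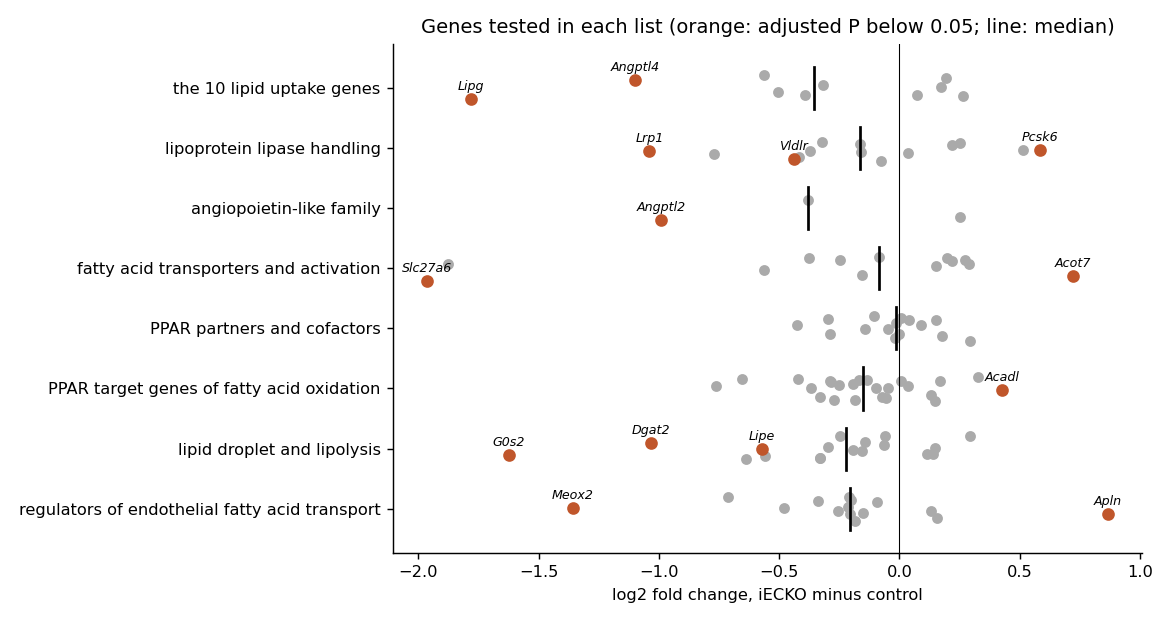
Log2 fold change (horizontal axis, *Atp6ap2* iECKO minus control) of each tested gene in the 10 lipid uptake genes and in 7 of the 8 lists of partners (rows; the small lipid-binding proteins are not drawn), with vertical scatter added for view. Orange points had an adjusted *P* value below 0.05 and are named, and black lines are medians.

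Markers of fibroblasts and mural cells, which surround lung vessels, were lower in *Atp6ap2* iECKO libraries. They include the collagen gene *Col1a1* (log2 fold change −1.62, limma adjusted *P* = 0.0106) and the pericyte receptor gene *Pdgfrb* (−1.54, adjusted *P* = 0.00831). Of 19 tested fibroblast markers, 13 were lower and 0 higher. The summed level of all 20 listed was 235395, 320577 and 259645 in the control libraries. It was 157470, 129458 and 117604 in the *Atp6ap2* iECKO libraries, 49.6% of the control mean. Of 15 mural and smooth muscle markers, 11 were lower and 0 higher, with summed levels of 16107 to 23463 against 6558 to 8385, or 34.9%. None of the markers in either list was at 0 in all libraries. The sums of both lists were lowest of the control libraries in control 1 and highest of the *Atp6ap2* iECKO libraries in *Atp6ap2* iECKO 1. *Angptl4*, *Plin2* and *Fabp5* had the same lowest and highest libraries, although *Fabp5* had a log2 fold change of 0.26. In *Atp6ap2* iECKO 1, 9 of the 10 lipid uptake genes were highest of the *Atp6ap2* iECKO libraries, a count without the share of all genes beside it. *Lipg*, *Cd36* and *Gpihbp1* were lowest of the control libraries in control 2. What these orders reflect was not tested. The part of these cells in the levels of the lipid uptake genes, among them *Angptl4*, *Lipg*, *Cd36* and *Plin2*, was not tested. Nor was it tested for the genes called in the lists of partners, among them *Slc27a6*, *Meox2*, *G0s2*, *Fabp3*, *Crabp1*, *Lrp1*, *Vldlr*, *Angptl2*, *Dgat2* and *Lipe*.

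All 20 endothelial markers passed the filter on low values, and 1 of them, *Tek*, was lower, and their summed level was 481423 to 635919 in the control and 463291 to 562375 in the *Atp6ap2* iECKO libraries, 93.8% of the control mean. With every library scaled to the same level of these markers, *Angptl4* was at a log2 fold change of −1.04 (limma adjusted *P* = 0.0460) and *Lipg* at −1.72 (adjusted *P* = 0.0294). These were close to the unscaled values of −1.10 and −1.78. The scaling levels endothelial markers only and does not correct for fibroblast or mural cells. Of 10 markers of general capillary cells, the lung EC type known for *Gpihbp1*, 1 was lower by the adjusted test and 5 had an unadjusted *P* value below 0.05, with a median log2 fold change of −0.33, and the sum of the 8 that are not among the 10 lipid uptake genes was 207905 to 273076 against 189925 to 212698, or 86.5% of the control mean. Of 10 markers of aerocytes, the capillary cells specialized for gas exchange, *Apln* was higher and *Fibin* lower, with sums of 54430 to 65499 against 60947 to 67982. At an unadjusted limma *P* value below 0.05 were 3 of 20 endothelial and 4 of 10 aerocyte markers, in either direction. So were 16 of 19 tested fibroblast and 14 of 15 mural markers, against 3453 of the 14456 genes tested. The 5 general capillary markers are to be read against the same share.

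No gene passed the limma test in the other 5 marker lists. Sums were taken over all genes listed. They overlapped between genotypes for the 15 alveolar type 2 markers, at 31558 to 78082 in control and 38144 to 45860 in *Atp6ap2* iECKO libraries. The 21 macrophage and leukocyte markers, 19 of them tested, also overlapped (8086 to 13884 and 5919 to 17190). So did the 9 platelet and erythroid markers, 8 of them tested (11628 to 41006 and 10851 to 19048). Of these 3 lists, 0 genes had an unadjusted limma *P* value below 0.05. *Hbb-bs* was listed at 0 in all libraries. The *Atp6ap2* iECKO sums of the 9 cardiac markers lay within or just above the control range (790.7 to 1339 and 1184 to 1396). Of the 5 cardiac markers tested, 1 had an unadjusted limma *P* value below 0.05. Of 10 adipocyte markers 2 passed the filter, *Cfd* and *Lep* were listed at 0 in all 6 libraries, and the sums were 65.4 to 74.9 and 20.4 to 69.1 (1 gene at an unadjusted *P* value below 0.05).

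**Figure D5:**
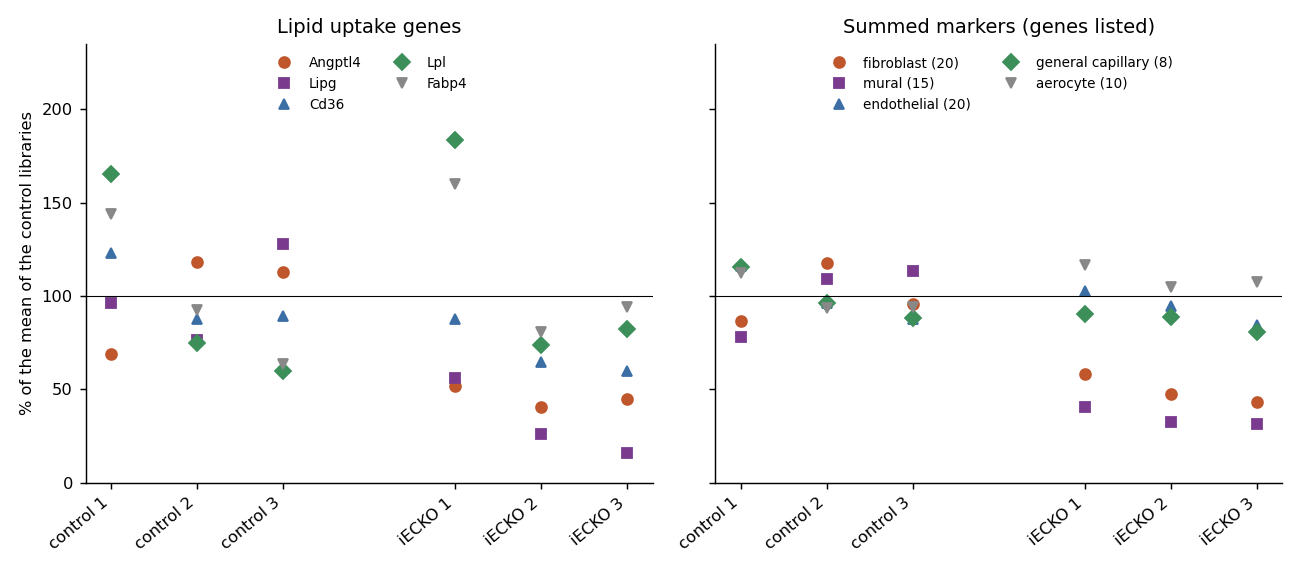
Levels in each library as % of the mean of the control libraries (vertical axes), for 5 of the lipid uptake genes (left) and for summed markers of 5 cell types (right, with the number of genes listed). *Angptl4* and *Lipg* and the fibroblast and mural sums are lower in all *Atp6ap2* iECKO libraries, and *Lpl* and *Fabp4* are high in replicate 1 of both genotypes.

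Over the 6 libraries, tested genes whose log2 levels most resembled *Angptl4* were *Prkca* and *Anxa6* (Pearson *r* = 0.999 and 0.996), and 367 genes had an *r* above 0.95. For *Gpihbp1* they were *Atxn7l1*, *Cdkl2* and *Snapc5* (*r* = 0.984, 0.981 and 0.980), with 36 genes above 0.95. *Lpl* was most closely matched by *Acod1*, *Ces2e* and *Mpp7* (*r* = 0.988, 0.985 and 0.984), with 28 genes above 0.95. These are descriptions over 6 points that share genotype and library.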

How the data were processed

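The RNA-Seq table that the authors deposited, with 3 control and 3 *Atp6ap2* iECKO samples of iLECs, was analysed. The authors prepared TruSeq libraries, which do not mark strand, and sequenced them by NextSeq. With BaseSpace tools they mapped reads against mm10 and estimated and normalized a count per gene. The deposited values are thus a normalized signal, although the labels call them raw counts. They are not whole numbers and reads could not be recovered, so no count model was used and no counting interval is given. All 6 sample columns were used. The depth relative to the shallowest library, from the most frequent low value, was 1.00 to 1.04 in the control and 1.25 to 1.55 in the *Atp6ap2* iECKO libraries.

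Genes at 10 or more in at least 3 libraries were tested on log2(value + 1) by limma (3.58.1, R 4.3.3) fitted to 6 libraries with a mean-variance trend and without covariates. Log2 fold changes on this scale understate changes of low genes. *P* values were adjusted by Benjamini-Hochberg over all genes tested, with a threshold of 0.05. Single values were compared by exact permutation (scipy 1.17.1). Nothing in the labels says that samples came from separate litters, so *P* values measure the spread between these samples. All 10 lipid uptake genes are named, and up to 4 genes past the threshold per pathway list, and for *Angptl4*, *Gpihbp1* and *Lpl* up to 3 genes with the highest *r*. Some genes that meet these rules are not reported here. Other genes (*Lmf1*, *Sel1l*, *Tcf15*, *Ncoa1*, *Angptl6*, *Angptl8*) were named after their values were seen. The genes and lists, 8 of pathways and 10 of markers, were chosen with earlier results of these data known.

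Coordinates and exon lengths are from GENCODE M21 (GRCm38), and promoters from RefSeq. Alternatives were other scalings, filters, pseudocounts, thresholds and variance models, *Xist* as a covariate or a selection, a replicate block and each library left out.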

Additional observations from a re-analysis of the deposited data

How the results depend on the processing

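Of 170 refits of the 10 lipid uptake genes, 148 kept direction and side of the threshold, 14 lost a call, 1 gained one and 7 reversed. All 14 lost calls were of *Angptl4* and *Lipg*. Without the mean-variance trend their adjusted *P* values were 0.0717 and 0.108. The reversals were in genes not called, *Lpl* (−0.22 to 0.63 with 1 library left out), *Fabp4* (−0.12 to 0.47), *Ppard* (−0.07 to 0.27, −0.0692 without control 3, and −0.0237 in the 4 libraries with *Xist*) and *Pparg* (0.0403 in those libraries). The causes were not tested. *Lipg* and *Angptl4* kept their direction in all of their refits.

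The number of the 10 genes called lower, 2, became 0 without the trend, 1 with *Xist* as a covariate, 0 in the libraries with *Xist*, 0 at an adjusted *P* value below 0.01, and 0 to 2 with 1 library left out. Calls over all genes tested, 1193, became 619 with endothelial marker scaling, 304 without the trend, 767 with *Xist* as a covariate, 0 in the libraries with *Xist* (2196 at an unadjusted *P* value below 0.05 by limma), 90 below 0.01, 1987 below 0.10, and 206 to 983 with 1 library left out. Calls in the pathway lists, 15, became 9 with endothelial marker scaling, 3 without the trend, 0 with the *Xist* libraries alone, 0 below 0.01 and 2 to 13 with 1 library left out. Calls in the marker lists, 27, became 15, 0 and 10 without the trend, with the *Xist* libraries alone and below 0.01, and 13 to 28 with 1 library left out.

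Same-numbered libraries deviated together by *r* = 0.25, 0.11 and 0.08, and control 3 correlated more with *Atp6ap2* iECKO 2 (0.10), so the numbers were not taken to pair samples. With a replicate block, 3 of the 10 genes were lower, *Cd36* being added (adjusted *P* = 0.0162), and 1508 genes were called in all. Leaving out 1 library from 3 leaves 2 in that genotype. *Pparg*, at 20.2 to 47.1 times the most frequent low value, is the gene whose precision depth limits most.

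Over longest transcripts in place of merged exons, control levels per kb moved to 489 for *Lpl*, 1025 for *Plin2*, 188 for *Ppard*, 2273 for *Gpihbp1* and 40.1 for *Pparg*.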
